A study of Rattus norvegicus with 50 samples.

Results

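A group of 9 genes of the alveolar type 2 (AT2) cell were followed in rat lungs after inhalation of titanium dioxide (TiO2) nanoparticles. They were chosen by gene name on the array as the 4 surfactant proteins (Sftpa1, Sftpb, Sftpc and Sftpd) and 5 genes of the machinery that makes and stores surfactant (Abca3, Lamp3, Napsa, Lpcat1 and Slc34a2), that is 9 of the 25208 genes tested. The values came from 50 one-colour Agilent arrays, one per rat, of RNA from the accessory lobe of the lung. The rats were male, of the inbred F344 strain and aged 12 weeks. Exposed rats breathed, through the nose only, an aerosol of TiO2 P25 at 10 mg/m3 for 6 h per day on 5 days per week during 4 weeks (given as 2 periods of 3 h), and control rats breathed filtered air. Lungs were taken right after the exposure (D0) or after a recovery of 3 days (D3), 28 days (D28), 90 days (D90) or 180 days (D180), 10 rats a time, of which 5 were exposed. The accessory lobe holds every cell type of the lung. In these bulk samples more AT2 cells, more RNA per AT2 cell and RNA of these genes from other cells cannot be told apart.

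AT2 cells line the corners of the alveoli and secrete surfactant, a film of phospholipid and protein that lowers surface tension and keeps the air spaces open. The lipid is made and remodelled in the cell, packed with the small hydrophobic proteins SP-B and SP-C into lamellar bodies, and released by exocytosis. The larger proteins SP-A and SP-D are soluble collectins, which bind sugars on microbes and particles and help alveolar macrophages to clear them. AT2 cells also divide and give rise to the flat alveolar type 1 (AT1) cells when the lining is injured.

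A level below is the normalized log2 signal of a gene's probe, and an effect is the difference between 2 group means on that scale. A difference was called over- or under-expression when it reached 1.5-fold (0.58 on the log2 scale) with a limma adjusted p under 0.05. Most member effects were smaller than that, so the adjusted p with no fold limit is given as well. All spots of the 9 genes were well above background on the 50 arrays, and no spot of theirs was saturated. Median processed signal per array ran from 198 to 473 fluorescence units, 68.7% to 84.5% of gene spots exceeded background clearly, and rats sharing a group had correlations over all genes of 0.974 to 0.996. The arrays lay on 7 slides, with D0, D3 and D28 on slides 1 to 4 and D90 and D180 on slides 5 to 7, except replicate 1 of the exposed rats at D3, which was on slide 7. Every slide held control and exposed rats. Retnla, a macrophage and epithelial gene with a large response to these particles, lay between 9.53 and 11.27 in the 25 control rats and between 12.29 and 14.51 in the 25 exposed rats, so no array went against its label.

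Promoters of members that passed the test at D0, and of Sftpb, which did not, are shown to set their sequences beside the values. RefSeq windows were found for 6 of the 9 members, but not for Sftpd, which also passed at D0, Sftpc or Napsa. For these 6 except Abca3, the 250 bases before the annotated start are given below, 5′ to 3′ on the strand of the gene. Capitals mark letters that match CTCAAG (the core bound by Nkx2-1, the master regulator of lung epithelium), TTGCNNAA (bound by C/EBP factors) or TATAA, each searched on both strands.
Sftpa1 (GRCr8 chr16:17042014-17042263, plus strand): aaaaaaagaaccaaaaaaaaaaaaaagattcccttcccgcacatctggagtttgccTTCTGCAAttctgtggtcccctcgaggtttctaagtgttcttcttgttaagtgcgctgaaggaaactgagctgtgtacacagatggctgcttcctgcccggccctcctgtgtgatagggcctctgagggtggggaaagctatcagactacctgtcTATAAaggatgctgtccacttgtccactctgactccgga
Sftpb (GRCr8 chr4:105917338-105917587, plus strand): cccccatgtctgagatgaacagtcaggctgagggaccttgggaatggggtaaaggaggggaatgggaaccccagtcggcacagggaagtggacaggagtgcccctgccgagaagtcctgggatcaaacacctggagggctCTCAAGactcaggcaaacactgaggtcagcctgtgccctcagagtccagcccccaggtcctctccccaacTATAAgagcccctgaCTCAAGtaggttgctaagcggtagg
Lamp3 (GRCr8 chr11:94697772-94698021, plus strand): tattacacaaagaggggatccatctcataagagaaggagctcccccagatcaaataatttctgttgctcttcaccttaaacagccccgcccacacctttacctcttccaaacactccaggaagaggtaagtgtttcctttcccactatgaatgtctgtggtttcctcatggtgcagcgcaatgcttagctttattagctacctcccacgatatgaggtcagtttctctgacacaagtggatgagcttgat
Lpcat1 (GRCr8 chr1:31644947-31645196, minus strand): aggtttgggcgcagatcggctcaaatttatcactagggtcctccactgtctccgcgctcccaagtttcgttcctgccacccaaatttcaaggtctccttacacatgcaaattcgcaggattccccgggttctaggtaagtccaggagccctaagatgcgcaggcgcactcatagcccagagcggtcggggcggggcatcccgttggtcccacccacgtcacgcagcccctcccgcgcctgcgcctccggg
Slc34a2 (GRCr8 chr14:62143073-62143322, minus strand): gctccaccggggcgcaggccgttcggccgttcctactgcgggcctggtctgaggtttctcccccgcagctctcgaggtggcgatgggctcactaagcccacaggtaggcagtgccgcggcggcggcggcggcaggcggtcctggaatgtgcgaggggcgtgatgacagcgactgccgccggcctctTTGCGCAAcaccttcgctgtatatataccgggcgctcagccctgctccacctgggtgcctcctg

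The windows differed in their letters. In Sftpb, CTCAAG was found from -110 to -105 and again from -25 to -20 relative to the start, and TATAA from -40 to -36. Sftpa1 had TATAA from -39 to -35, and TTGCNNAA on the opposite strand from -194 to -187. The match of Slc34a2 to TTGCNNAA, from -64 to -57, reads alike on both strands. No match was found in Lamp3 or Lpcat1, the members with the largest effects at D0. The Abca3 window, not printed here, held no match either, and the effect on Abca3 at D0 was 0.07. No 2 of these motifs overlapped. Over the 33469 promoter windows of the same length, 13.3% held CTCAAG, 9.22% held TTGCNNAA and 24% held TATAA on either strand. GC content was 45.6% in the Lamp3 window, 48.4% in Sftpa1, 58.8% in Sftpb, 61.2% in Lpcat1 and 68.8% in Slc34a2. A match is a run of letters here, since no binding was measured.

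At the end of exposure the members moved one way or not at all. At D0, 5 of the 9 passed the adjusted p, all 5 higher in exposed rats, namely Sftpa1, Sftpd, Lamp3, Lpcat1 and Slc34a2, against 6.93% of the 25208 genes tested. Of these, 1 gene, Lpcat1, also reached 1.5-fold, as did 2.77% of the genes tested in that direction. In these 5 genes all exposed rats lay above all control rats, a pattern seen in 4.76% of the genes tested. Without replicate 2 of the controls, or without replicate 1, 2 or 4 of the exposed rats, Lamp3 reached 1.5-fold too, giving 2 members. Without replicate 3 of the controls the effect on Lpcat1 was 0.56, under the fold limit, and that on Lamp3 was 0.62, so that Lamp3 was then the 1 member called. The median effect over the 9 members was 0.32, against -0.01 over all genes tested.

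Without a slide term, fewer members passed at the later days than at D0. With slide as a block the counts by the adjusted p alone were 6 at D0, D3 and D28, 3 at D90 and 0 at D180. Of all genes tested, 28.1%, 19.6%, 12.4%, 4.35% and 4.11% passed in either direction from D0 to D180 with that block. The values that follow are without it. At D3, 4 members were higher by the adjusted p alone (Sftpa1, Sftpd, Napsa and Lpcat1), against a background of 4.89%, and again Lpcat1 alone reached 1.5-fold (background 1.98%). At D28 1 member passed the adjusted p, Sftpa1 (background 2.44%), and at D90 and D180 there was none (background 0.69% and 0.635%). At D90 and D180 limma gave an unadjusted p under 0.05 to 1 and 0 members. No member reached 1.5-fold from D28 on, while 0.861%, 0.246% and 0.246% of the genes tested were over-expressed at D28, D90 and D180. Members whose exposed rats all lay above the controls numbered 3 at D3 (background 3.35%), 2 at D28 (2.23%), 1 at D90, Abca3 (2.2%), and 0 at D180 (2.77%). The median effect of the members was 0.26 for D3, 0.21 for D28 and 0.10 for the last days. By the adjusted p 0 members were lower in exposed rats at any day, where 6.58%, 5.53%, 1.44%, 0.357% and 0.258% of the genes tested were lower from D0 to D180.

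**Figure D1:**
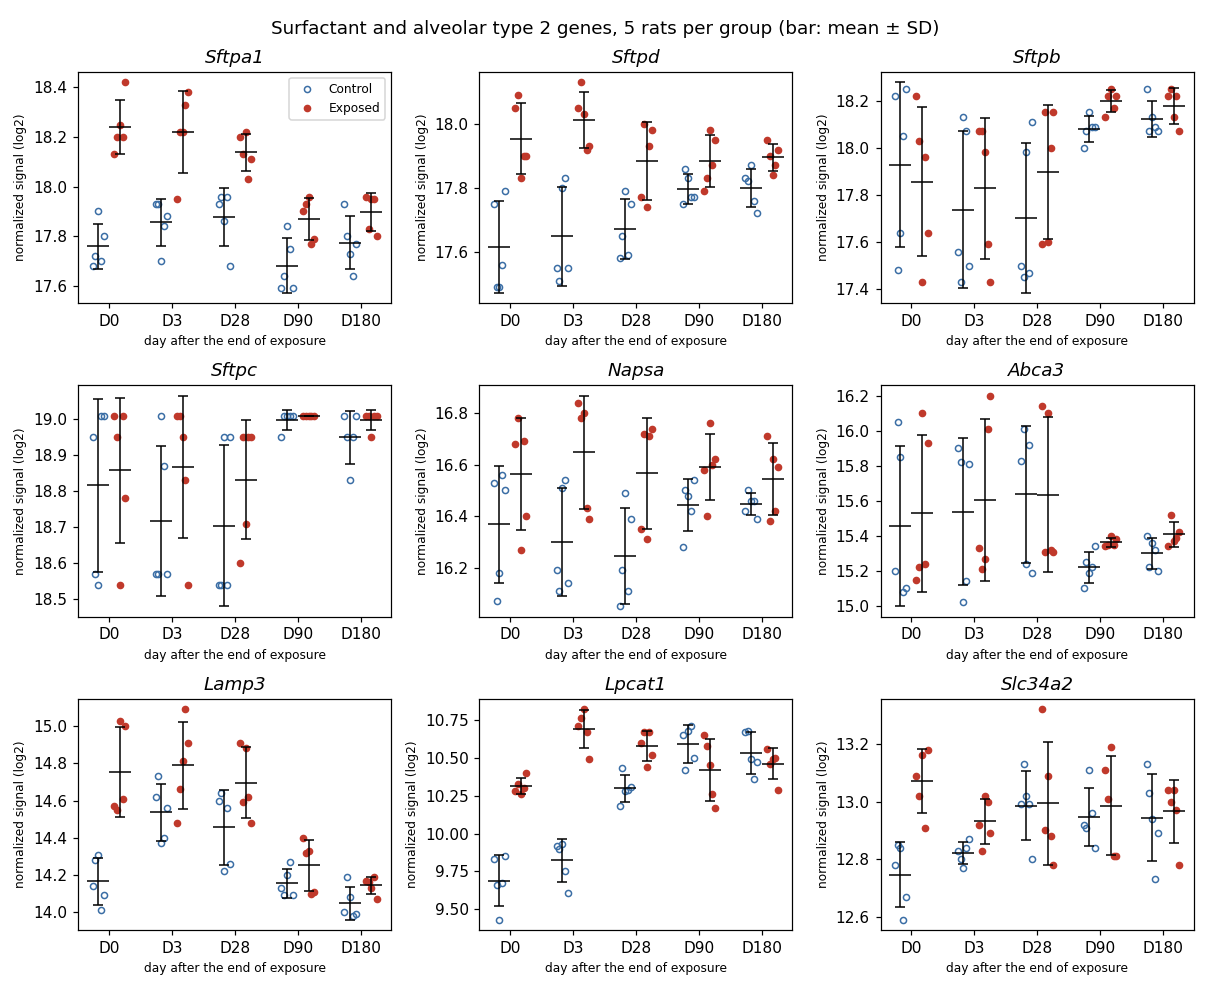
Level of the 9 members in each rat, as normalized log2 signal (vertical axis, scaled per gene), by day after the end of exposure, with open blue points for the 5 control and filled red points for the 5 exposed rats of a day and bars for the mean ± SD. Exposed rats lie above all controls at D0 in Sftpa1, Sftpd, Lamp3, Lpcat1 and Slc34a2, while Sftpb, Sftpc and Abca3 fall into 2 levels within both groups at D0, D3 and D28.

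Sftpa1 encodes SP-A, the most abundant surfactant collectin. Its probe lay at chr16:17573232-17573291 of the rn4 assembly. At D0 the level was 17.68, 17.72, 17.90, 17.70 and 17.80 in the control rats and 18.13, 18.20, 18.25, 18.20 and 18.42 in the exposed rats. Every exposed rat was higher than every control rat. The effect was 0.48 (SE 0.07, adjusted p = 2.17e-06 by limma), or 1.39-fold with a 95% interval of 1.26 to 1.54. At D3 the 5 control rats ranged from 17.70 to 17.93 and the 5 exposed rats from 17.95 to 18.38, again without overlap. The effect there was 0.36 (adjusted p = 0.000298 by limma).

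Without a slide term Sftpa1 was also the member that stayed past the test for longest. With slide as a block both Sftpa1 and Napsa passed at D0, D3, D28 and D90. The values that follow are without the block. At D28 its level was 17.93, 17.96, 17.86, 17.96 and 17.68 in control and 18.20, 18.13, 18.22, 18.03 and 18.11 in exposed rats. The groups still did not overlap, with an effect of 0.26 (adjusted p = 0.0271 by limma), a call lost without replicate 3 or 5 of the controls or replicate 2, 3 or 5 of the exposed rats (adjusted p from 0.0264 to 0.0853 over 10 fits, each without 1 rat). At D90 the effect was 0.19 (95% interval 0.05 to 0.34, adjusted p = 0.318 by limma) and 3 exposed rats exceeded each control. At D180 it was 0.12 (-0.02 to 0.27). The effect at D180 was smaller than that at D0 by 0.35 (SE 0.10, adjusted p = 0.031 by limma for the interaction). With the arrays scaled to their 75th percentile the effects on Sftpa1 at D3 and D28 were 0.27 and 0.18 and did not pass.

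Sftpd encodes SP-D, the other collectin of the airspace. Its probe was placed on unassigned sequence of chromosome 16 in rn4. At D0 the level was 17.75, 17.49, 17.49, 17.56 and 17.79 in control rats and 18.05, 18.09, 17.83, 17.90 and 17.90 in exposed rats. The lowest exposed rat lay above the highest control rat. The effect was 0.34 (SE 0.07, adjusted p = 0.000289 by limma), or 1.27-fold. At D3 the control rats had 17.55, 17.51, 17.80, 17.83 and 17.55 and the exposed rats 18.05, 18.13, 18.03, 17.92 and 17.93. The groups were again apart, by 0.36 (adjusted p = 0.000145 by limma), or 1.29-fold. Without a slide term the later effects were 0.21 at D28 (adjusted p = 0.0658 by limma), 0.09 at D90 and 0.10 at D180, none of them past the test. With slide as a block the effect at D28 was 0.16 and passed (adjusted p = 0.00417 by limma).

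Sftpb and Sftpc encode the hydrophobic proteins SP-B, which is required for the film to form, and SP-C, the classical marker of AT2 cells. Neither passed the test at any day without a slide term. With slide as a block Sftpb passed at D90 (0.12, adjusted p = 0.0439 by limma) and Sftpc at no day. In Sftpb the D0 level was 18.22, 17.48, 17.64, 18.05 and 18.25 in control and 18.22, 18.03, 17.43, 17.96 and 17.64 in exposed rats. Both groups spread over the same range, and the effect was -0.07 with a 95% interval of -0.39 to 0.24. The later effects lay between 0.06 and 0.19. The D0 interval reached up to a 1.18-fold higher signal. With slide as a block or with scaling to the 75th percentile the sign at D3 turned (0.09 against -0.04 and -0.02).

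The level of Sftpc at D0 was 18.95, 18.57, 18.54, 19.01 and 19.01 in control and 19.01, 18.95, 18.54, 19.01 and 18.78 in exposed rats. The values repeat because the probe was among the 9 brightest of the tested genes on every array and quantile normalization gives each rank a fixed value. Its effect was 0.04 at D0 (95% interval -0.17 to 0.26) and at most 0.15, at D3 (-0.06 to 0.36). All 5 exposed rats at D90 carried the same value, 19.01, so a difference at the top of the scale could not be seen there. Before normalization the Sftpc signal ran from 305000 to 564000 fluorescence units. With the arrays brought to a common 75th percentile, which fixes no rank, the effect of Sftpc was 0.13 at D0, -0.05 at D3 and -0.26 at D90, again past the test at no day. Yet at D90 the unscaled Sftpc signal hardly followed array brightness. Control replicates 1 and 3 had array medians of 214 and 391 and Sftpc signals of 507000 and 543000. Their Sftpa1 signals were 127000 and 233000. Scaling therefore cannot tell a change of Sftpc there from a change of array brightness.

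Napsa encodes napsin A, an aspartic protease of the lamellar body that processes the SP-B precursor. At D0 its effect was 0.20 (95% interval -0.03 to 0.43, adjusted p = 0.315 by limma). At D3 the level was 16.19, 16.11, 16.51, 16.54 and 16.14 in control and 16.84, 16.78, 16.80, 16.43 and 16.39 in exposed rats. The groups overlapped, with 3 exposed rats above all controls. The effect of 0.35 passed the test (SE 0.11, adjusted p = 0.0386 by limma), and lost the call without replicate 1, 2 or 5 of the controls or replicate 1, 2 or 3 of the exposed rats, with adjusted p up to 0.127. At D28 it was 0.32 (adjusted p = 0.11 by limma), and 0.15 and 0.10 at the later days. With slide as a block Napsa passed at D0, D3, D28 and D90.

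Abca3 encodes the lipid pump that loads phospholipid into lamellar bodies. Its D0 level was 15.20, 16.05, 15.85, 15.08 and 15.10 in control and 15.15, 15.22, 16.10, 15.24 and 15.93 in exposed rats. In each group the 2 rats on slides 2 and 3 lay near 16 and the other 3 near 15. The effect was 0.07 with a 95% interval of -0.36 to 0.51. From D3 to D180 it lay between 0 and 0.14 without a slide term. With slide as a block Abca3 passed at D3 (0.22, adjusted p = 7e-04 by limma) and at D28 (0.17, adjusted p = 0.0118 by limma). A second, dimmer Abca3 probe, whose level cannot be set against the first, had an effect of 0.09 at D0, 0.30 at D3 (adjusted p = 0.0508 by limma over all probes) and 0.28 at D28.

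Lamp3 (DC-LAMP) is a membrane protein of lamellar bodies. Its probe, at chr11:83476094-83476153 of rn4, was printed in 10 spots per array. At D0 the level was 14.14, 14.28, 14.31, 14.01 and 14.09 in control and 14.57, 14.55, 15.03, 14.61 and 15 in exposed rats. All exposed rats were above all controls. The effect was 0.58 (SE 0.10, adjusted p = 4.59e-05 by limma), just under the fold limit. By D3 the control rats had 14.62, 14.73, 14.37, 14.40 and 14.56 and the exposed rats 14.48, 14.66, 14.81, 15.09 and 14.91. The groups overlapped, and the effect was 0.26 (adjusted p = 0.116 by limma). With slide as a block it was 0.36 and passed (adjusted p = 1.44e-06 by limma).

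In the control rats themselves Lamp3 was higher at D3 than at D0, by 0.37 (SE 0.10, adjusted p = 0.0189 by limma), the 5 rats of D3 lying above the 5 of D0. The call was lost without replicate 4 of the D0 controls or without replicate 1 or 2 of the D3 controls. Lamp3 was the 1 member of 9 to differ in that comparison, where 7.36% of the genes tested did. The exposure effect on Lamp3 was smaller than at D0 by 0.49 at D90 (adjusted p = 0.0469 by limma for the interaction) and by 0.49 at D180 (adjusted p = 0.0458), and was itself 0.10 at those days. These Lamp3 differences and that of Sftpa1 were lost without some single rats, with 1 to 2 members left at D90 and 1 to 3 at D180.

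Lpcat1 encodes the acyltransferase that makes the saturated phosphatidylcholine of surfactant by remodelling. Its probe lay at chr1:30574227-30574286 of rn4. At D0 the level was 9.83, 9.66, 9.43, 9.67 and 9.85 in control and 10.28, 10.33, 10.26, 10.30 and 10.40 in exposed rats. The exposed rats lay close together, all above the controls. The effect was 0.62 (SE 0.08, adjusted p = 3.6e-07 by limma), or 1.54-fold. At D3 the control rats had 9.92, 9.90, 9.93, 9.75 and 9.61 and the exposed rats 10.71, 10.76, 10.82, 10.67 and 10.49. No exposed rat came near the controls, and the effect of 0.87 (SE 0.08, adjusted p = 2.11e-10 by limma), or 1.83-fold with a 95% interval of 1.62 to 2.06, was the largest of any member at any day.

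For Lpcat1 the control level moved as well. At D28 the level was 10.18, 10.43, 10.28, 10.29 and 10.31 in control and 10.60, 10.67, 10.44, 10.67 and 10.52 in exposed rats. The groups were still apart, by 0.28 (adjusted p = 0.051 by limma), just past the threshold on the other side. With slide as a block the effect was 0.25 and passed (adjusted p = 0.00886 by limma). The control rats of D28 were higher than those of D3 by 0.48 (SE 0.08, adjusted p = 0.000328 by limma), and Lpcat1 was the 1 member to differ in that comparison (background 1.49%). At D90 the exposed rats ranged from 10.17 to 10.65 and the control rats from 10.42 to 10.71, an effect of -0.17 (95% interval -0.34 to 0, adjusted p = 0.711 by limma). The effect was smaller than that at D0 by 0.79 at D90 (SE 0.12, adjusted p = 8.93e-06 by limma for the interaction) and by 0.70 at D180 (adjusted p = 0.000104).

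Slc34a2 encodes the sodium-phosphate cotransporter NaPi-IIb of the AT2 cell surface. At D0 the level was 12.78, 12.85, 12.84, 12.59 and 12.67 in control and 13.09, 13.02, 13.16, 12.91 and 13.18 in exposed rats. Every exposed rat was above every control, with an effect of 0.32 (SE 0.08, adjusted p = 0.00548 by limma), or 1.25-fold. At D3 it was 0.11 (95% interval -0.06 to 0.28), where 4 exposed rats exceeded each control, and it then lay between 0.01 and 0.04 from D28 on.

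**Figure D2:**
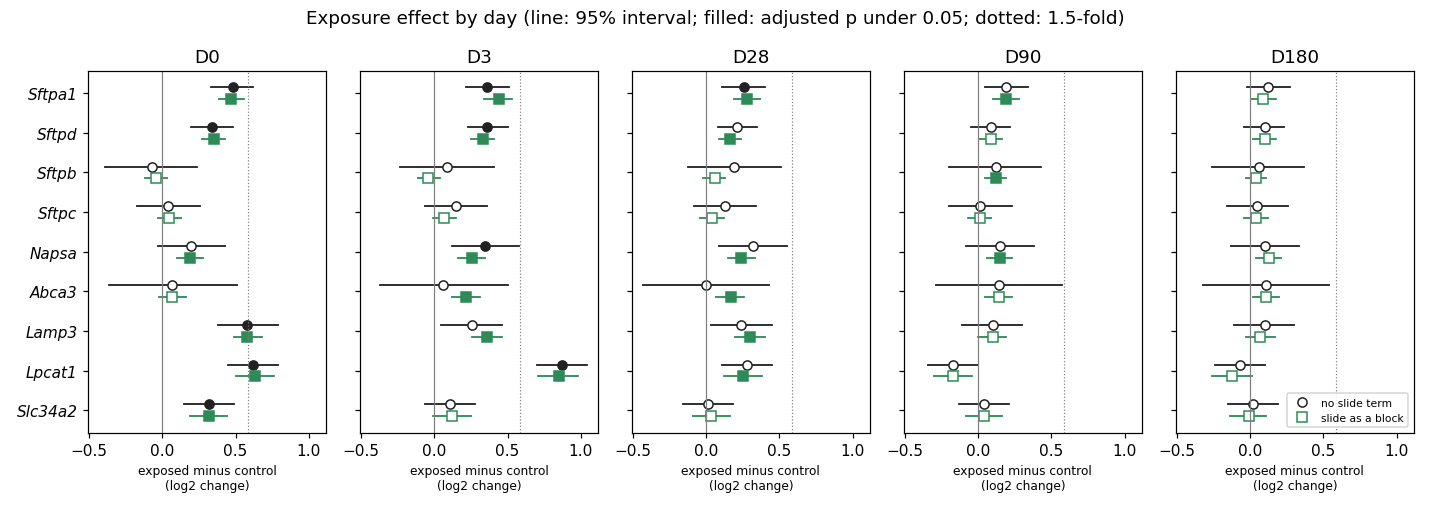
Exposure effect on each member (exposed minus control, log2 change, horizontal axis) at the 5 days, without a slide term (black circles) and with slide as a block (green squares), with lines for the 95% interval, filled points for an adjusted p under 0.05 and a dotted line at 1.5-fold. Lpcat1 goes from 0.62 at D0 and 0.87 at D3 to -0.17 at D90, and Sftpb and Sftpc stay near 0 at D0 and D3 in both fits.

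Slide set much of the spread of some members. Among the 30 arrays of D0, D3 and D28, slide accounted for 97% of the variance of Sftpb, 93.2% of that of Abca3, 89.8% of Sftpc and 76.5% of Napsa, against 12.3% for Lpcat1 and 10.2% for Sftpa1. On slides 2 and 3 Sftpb lay between 17.43 and 17.64, and on the other 5 slides between 17.96 and 18.25. Abca3 ran the opposite way, from 15.81 to 16.20 on slides 2 and 3 and from 15.02 to 15.52 elsewhere. Control and exposed rats were on both kinds of slide.

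**Figure D3:**
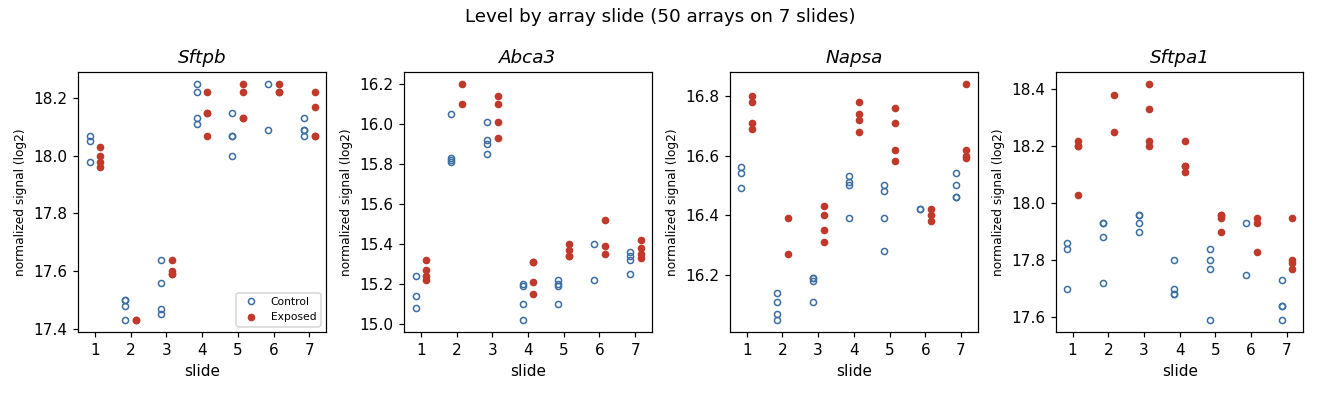
Level (normalized log2 signal, vertical axis) of Sftpb, Abca3, Napsa and Sftpa1 by slide, with open blue points for control and filled red points for exposed rats, 50 arrays in all. Sftpb is low and Abca3 high on slides 2 and 3 in both groups, while Sftpa1 shows no such step, and its groups overlap on slide 6 (17.75 and 17.93 in control, 17.83 to 17.95 in exposed rats).

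With slide as a block the smaller effects came past the test. From D0 to D180 the adjusted p alone then gave 6, 6, 6, 3 and 0 members, all higher, while 28.1%, 19.6%, 12.4%, 4.35% and 4.11% of all genes passed in either direction. Napsa joined at D0 (0.19, adjusted p = 0.000678 by limma). At D3 Lamp3 (0.36, adjusted p = 1.44e-06 by limma) and Abca3 (0.22, adjusted p = 7e-04) came in, and Sftpa1, Sftpd, Napsa and Lpcat1 passed as before. At D28 Lamp3, Napsa, Lpcat1, Abca3 and Sftpd passed beside Sftpa1, with effects of 0.16 to 0.30. At D90 the 3 members were Sftpa1 (0.19), Napsa (0.15) and Sftpb (0.12). Sftpc passed at no day with the block either, its D0 interval being -0.03 to 0.13, and that of Sftpb at D0 being -0.12 to 0.03.

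Exposed and control rats were also compared within slides. At D0 the exposed mean was above the control mean on 4 of 4 slides for Sftpa1 (0.39 to 0.53), Sftpd (0.28 to 0.44), Lamp3 (0.45 to 0.75), Lpcat1 (0.44 to 0.96), Slc34a2 (0.31 to 0.37) and Napsa (0.17 to 0.22). Sftpb was higher in exposed rats on 0 of 4 slides, with differences of -0.06 to 0, Abca3 on 3 of 4 (0 to 0.15) and Sftpc on 2 of 4 (-0.03 to 0.24). At D3 Lpcat1 was higher by 0.74 to 1.07 on the 4 slides that held both groups. Sftpa1 (0.38 to 0.52), Lamp3 (0.27 to 0.47), Sftpd (0.20 to 0.40), Napsa (0.24 to 0.27), Abca3 (0.11 to 0.38) and Slc34a2 (0.06 to 0.19) were also higher there on 4 of 4, Sftpc on 2 (-0.03 to 0.26) and Sftpb on 1 (-0.10 to 0.03). At D28 Sftpa1, Sftpb, Sftpd, Abca3, Lamp3, Napsa and Lpcat1 were higher on 3 of 3 slides, Slc34a2 on 2 and Sftpc on 1. At D90 and D180 Lpcat1 was lower in exposed rats on 3 of 3 slides, with differences of -0.24 to -0.12 and -0.19 to -0.05, which passed the test at neither day. Sftpd, Abca3 and Lamp3 were higher on 3 of 3 slides at both of these days (0.01 to 0.22), Sftpa1 and Sftpb on 3 at D90 and on 2 and 1 at D180, Napsa on 2 at both, Slc34a2 on 2 and 1, and Sftpc on 1 at both.

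Leaving out slides 2 and 3, a choice made after the values by slide were seen, kept 2 or 3 rats per group at D0, D3 and D28. The adjusted p alone then gave 5 members at D0, 4 at D3 and 2 at D28, all higher. Of the 25208 genes tested it gave 2502, 1862 and 856 in either direction, and 894 of them at D0 also reached 1.5-fold. The effect on Lpcat1 at D0 was 0.52 (past the adjusted p and under the fold limit), so that 0 members reached 1.5-fold at D0.

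With the block the difference of later effects from those at D0 was also seen in more members. Without it, the exposure effect of D3 and of D28 differed from that of D0 in 0 members, that of D90 in 2 (Lamp3 and Lpcat1) and that of D180 in 3 (Sftpa1, Lamp3 and Lpcat1), against 0.928%, 2.61%, 3.77% and 3.99% of the genes tested. With the block the counts were 0, 5, 6 and 5, against 3.84%, 8.44%, 13.3% and 13.5%. All were smaller effects than at D0 except that of Sftpb at D90, which was larger by 0.16 (adjusted p = 0.0248 by limma). These differences share the D0 rats and are not independent of each other.

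Control rats were also compared with each other. Besides Lamp3 at D3 and Lpcat1 at D28, no member differed between the control rats of neighbouring days that shared slides, and between D90 and D180 limma called 0 members (unadjusted p under 0.05 in 0) and 7 of 25208 genes, or 0.0278%. The spread within groups was 0.10 (pooled SD) for Sftpd, 0.11 for Sftpa1, 0.13 for Lpcat1 and Slc34a2, 0.16 for Lamp3 and Sftpc, 0.18 for Napsa, 0.25 for Sftpb and 0.34 for Abca3, against a median of 0.27 over all genes tested.

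Among rats of one group, how the members moved with each other depended on whether slide was taken out. After the group means were taken out, Sftpb and Sftpc had a correlation of 0.94 over the 50 arrays and Abca3 and Sftpb one of -0.94, both points that share slides. After slide was taken out as well these were 0.24 and 0.04. The closest pairs were then Lamp3 and Lpcat1 (0.62), Sftpa1 and Napsa (0.59), and Sftpb and Sftpd (0.52). Slc34a2 (0.57), Sftpd (0.53) and Napsa (0.50) were closest to the mean of the other members and Sftpc (-0.10) the farthest. Sftpa1 (0.39), Lamp3 (0.37), Sftpb (0.34), Lpcat1 (0.29) and Abca3 (0.24) lay between them. For Sftpc the fixed values of the top ranks limit what a correlation can show. With group means alone taken out, the genes outside the group most like the mean of the members were Pttg1ip (0.71), Mllt10 (0.67), Nfat5 (0.66), Hnrnpl (0.65) and Emc3 (0.65), values that share slide as well. With slide also taken out the list was a different one, namely Nxf1 (0.67), Zfp110 (0.67), Invs (0.66), Rgs11 (0.65) and Pias1 (0.64). Both lists are the top of a ranking over all other genes tested, and whether such values exceed chance was not tested.

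Other genes of the AT2 cell and of surfactant metabolism moved in both directions. Of 18 further AT2 identity genes, 1 was higher and 3 were lower at D0 by the adjusted p, with a median effect of 0, where 6.93% of all genes tested were higher and 6.58% lower. Muc1, a membrane mucin, rose by 0.71 (adjusted p = 0.00833 by limma). Acoxl, an acyl-CoA oxidase-like gene, fell by 0.67 (adjusted p = 2.44e-08 by limma), Gpr116 (Adgrf5), a receptor that restrains surfactant secretion, fell by 0.39 (adjusted p = 0.000561), and Etv5, a transcription factor of AT2 cells, fell by 0.36 (adjusted p = 2.82e-05). At D3, 2 of the 18 were higher and 2 lower, with Muc1 at 0.87, S100g at 0.33, Acoxl at -0.49 and Etv5 at -0.25. Nkx2-1 had an effect of -0.05 at D0 and 0.19 at D3 (adjusted p = 0.0967 by limma), not past the test.

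Of 20 genes of surfactant lipid synthesis, 3 were higher and 2 lower at D0, and 5 were higher and 1 lower at D3 (all genes tested 4.89% higher and 5.53% lower), with medians of 0.10 and 0.09. Fabp5, a fatty acid binding protein, rose by 1.01 at D0 (adjusted p = 8.34e-09 by limma) and by 0.74 at D3. Lpcat3, another lysophospholipid acyltransferase, rose by 0.36 at D0 and 0.60 at D3 (adjusted p = 8.24e-10 by limma). Prdx6, a phospholipase and peroxidase that takes part in surfactant turnover, fell by 0.32 at D0 and by 0.42 at D3. Scd1, a fatty acid desaturase, was lower at D0 (-0.75), higher at D3 (0.66) and lower again at D28 (-1.68), D90 (-1.48) and D180 (-1.49), each past the test.

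The clock gene Dbp also changed sign between days, with group ranges of 15.11 to 15.50 in control and 13.20 to 13.74 in exposed rats at D0, and 10.62 to 11.02 in control and 13.12 to 14.68 in exposed rats at D28. From D3 to D28 the control level of Dbp fell by 4.50, while that of Lpcat1 rose by 0.48. Day by day, from D0 to D180, the effect on Dbp was -1.95, -2.49, 3.27, 3.36 and 2.97, each past the test. In the same order the effect on Lpcat1 was 0.62, 0.87, 0.28, -0.17 and -0.07. Dbp thus differed between exposed and control rats at each of these days. The part of the time of day of sampling in the effects on the members was not tested.

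Genes of surfactant clearance, which runs through alveolar macrophages under control of GM-CSF, were counted as well. Of 10 such genes 2 were higher and 1 lower at D0, beside 6.93% and 6.58% of all genes tested. Csf2, which encodes GM-CSF, rose by 0.76 (adjusted p = 5.59e-05 by limma), Csf2ra, a chain of its receptor, rose by 0.45 (adjusted p = 7.43e-05) and Pla2g15, a lysosomal phospholipase, fell by 0.46 (adjusted p = 0.000431). At D28 Csf2ra (0.40) and the scavenger receptor Cd36 (0.31) were higher. Of 3 further collectins tested, Mbl1, a mannose-binding lectin of the serum, rose from 6.18 to 7.39 at D0 (effect 1.21, adjusted p = 1.01e-07 by limma) and from 5.90 to 6.67 at D3 (0.77, adjusted p = 0.000422), while Colec12 and Colec10 passed at neither day (-0.34 and -0.12 at D0). These Mbl1 levels are dim beside those of Sftpa1 (17.76) and Sftpd (17.61) in the D0 controls.

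Markers of other cell types were counted at the same days, and each count stands beside the share of all genes tested, which was 6.93% higher and 6.58% lower at D0, 4.89% and 5.53% at D3, and 2.44% and 1.44% at D28. Of 11 AT1 markers, 6 were lower and 0 higher at D0 (median -0.35, against -0.01 over all genes tested), among them Cav1 (-0.46, adjusted p = 2.36e-06 by limma), Clic5 (-0.41), Ager (-0.39) and Spock2 (-0.38). At D3, 6 were lower (median -0.52), with Hopx at -0.65, Spock2 at -0.61, Clic5 at -0.53 and Aqp5 at -0.52, and at D28, 2 were lower. The mean level of the AT1 list, relative to its mean over all arrays, was -0.04 to 0.33 in the controls and -0.30 to -0.15 in the exposed rats of D0.

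All 8 proliferation genes were higher at D0 (median 1.44), with Top2a at 1.94, Ccnb1 at 1.82, Cdk1 at 1.77 and Birc5 at 1.63. At D3, 5 were higher and at D28, 3. The control rats also differed, 6 of the 8 being higher at D3 than at D0 (median 1.29), where 7.36% of the genes tested differed. The mean level of the list, relative to its mean over all arrays, was -0.79 in the D0 controls. It was 0.32 in the D3 controls and 0.48 in the exposed rats of D0. Which cells divided cannot be told from these arrays.

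Leukocyte and endothelial markers were counted against the same shares, 6.93% higher and 6.58% lower at D0. Of 8 neutrophil markers 3 were higher at D0, including S100a9 (1.69) and S100a8 (1.37), and 5 at D3. Of 10 macrophage markers 3 were higher at D0 (Itgax 0.52, Msr1 0.46 and Emr1 0.29), of 7 lymphocyte markers 3 were higher (median 0.51), and of 8 endothelial markers 5 were lower (Cldn5 -0.87, Tek -0.59, Vwf -0.56 and Pecam1 -0.48). Between control rats 5 of the 7 lymphocyte markers were higher at D3 than at D0 (median 0.51), where 7.36% of the genes tested differed. The 8 endothelial and 10 macrophage markers were well above background on all 50 arrays, while of the neutrophil markers Elane was so on 2 arrays and Mpo on 17. Of 11 genes of reactive alveolar epithelium, 1 was lower at D0 (Krt7, -0.42) and at D3 Sfn rose by 0.81 (adjusted p = 4.26e-10 by limma) while Krt7 fell by 0.52. Airway secretory (1 higher and 2 lower of 7), ciliated (2 lower of 7) and fibroblast markers (1 lower of 7) had medians of -0.11, -0.11 and -0.23 at D0. The part of the cell makeup of the lobe in the effects on the members was not tested.

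**Figure D4:**
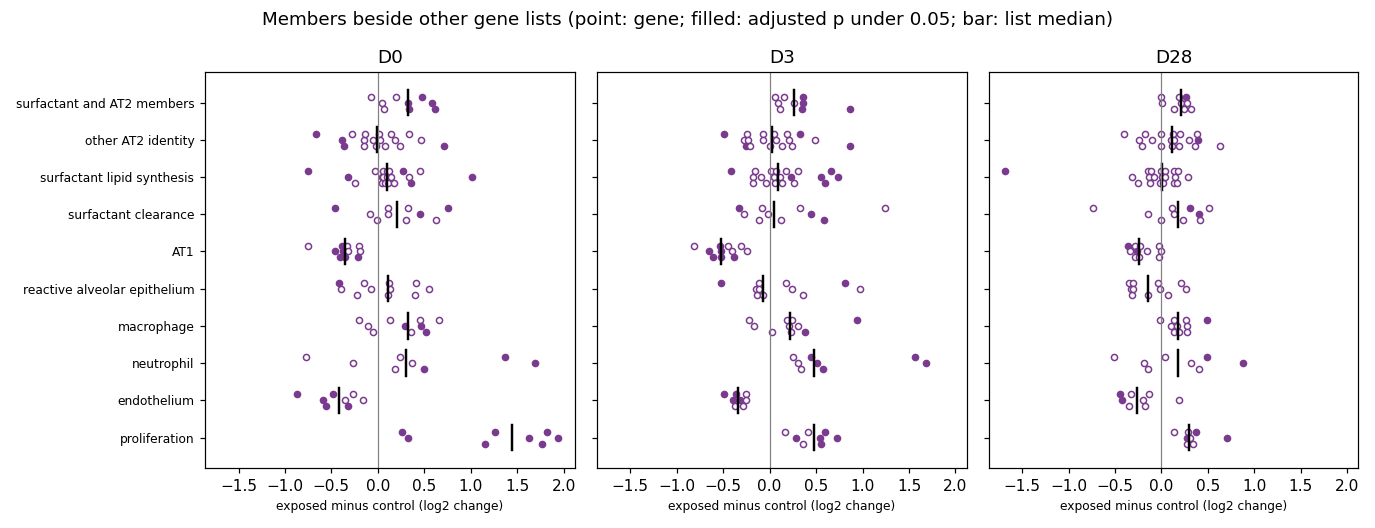
Exposure effect (log2 change, horizontal axis) of each gene of the members and 9 other lists at D0, D3 and D28, filled where the adjusted p was under 0.05, with a black bar at the list median. At D0 the members have a median of 0.32 and the AT1 markers one of -0.35, and the proliferation genes reach 1.94.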

How the data were processed

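Intensity values were deposited for 50 one-colour (Cy3) arrays as scanner output, which the authors made with Agilent Feature Extraction 11.0.1.1 (background-subtracted processed signal, array annotation rn4). The deposited value table, a quantile-normalized linear signal (r 0.995 with the log2 median signal, column medians 408 to 411), served as an alternative. Which batch terms entered the submitters' own calls is not given in the sources used here. 5 rats formed each group, 1 array per rat.

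Non-uniform and outlier gene spots were left out, log2 signals averaged per probe and quantile normalized (R 4.3.3, limma 3.58.1). Of 30367 probes, 29549 passed a filter (5 or more arrays above 95% of the negative control spots), and the brightest probe of each of 25208 genes was kept. Group means were fitted over all 10 groups with limma, and p-values adjusted by Benjamini-Hochberg over all genes. The number of arrays limits the precision. The pipeline was tested on simulated data.

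The members and gene lists were chosen with earlier results of these data known. All members are named at the comparisons between groups, and from each other list at most 4 genes with the largest change among those past the adjusted p, or at most 2 defining markers where none passed. Alternatives covered scaling, background correction, the filter, the choice of probe, kept outlier spots, the deposited table, the arrays of a day alone, replicate and slide blocks and each rat left out. Leaving out slides 2 and 3 was added after seeing the data. Promoter windows came from RefSeq (GRCr8) and were matched by symbol.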

Additional observations from a re-analysis of the deposited data

Results flagged for a closer look

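The exposure effect at a later day differed from that at D0, by limma's interaction term with adjusted p under 0.05, in 5 cases. For Lpcat1 the difference was -0.79 at D90 and -0.70 at D180, for Lamp3 it was -0.49 at D90 and -0.49 at D180, and for Sftpa1 it was -0.35 at D180. All these comparisons share the D0 rats, and D90 and D180 lay on other slides than D0.

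In 3 of the 90 groups of 5 rats over the members, 1 rat stood apart from the rest by Dixon's criterion, which chance meets in about 1 in 20 groups. Sftpc was 18.95 in replicate 1 of the controls at D90 and 18.95 in replicate 3 of the exposed rats at D180, with the other rats at 19.01, and both steps are neighbouring ranks of the normalization. Slc34a2 was 12.78 in replicate 5 of the exposed rats at D180, with the nearest rat at 12.97.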

How the results depend on the processing

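The 1 member past both limits at D0 became 2 with 75th percentile scaling, with the authors' value table and with outlier spots kept, and 0 with normexp or without slides 2 and 3. Over all genes, in either direction, 1079 were past both limits in the main fit. These alternatives gave 1011, 664, 1079, 582 and 894 in that order. Members past the adjusted p went at D0 from 5 to 3 and at D3 from 4 to 1 when the arrays of the day were fitted alone. All genes past it went from 3406 to 1337 and from 2628 to 954. At D28 the 1 member became 0 with 75th percentile scaling or the day alone, 3 with the stricter filter, 6 with slide as a block and 2 without slides 2 and 3. All genes past the adjusted p there numbered 978 in the main fit. In the same order these alternatives gave 968, 152, 1095 (of 18034 genes kept by that filter), 3129 and 856. At D90 slide as a block gave 3, while all genes past the adjusted p went from 264 to 1096. Effects differing from D0 numbered 5 at D28 with slide as a block (0 without it), at D90 6 with it and 1 with normexp (2), and at D180 5 with it and 1 with normexp (3).

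Abca3 at D28, at 0 without a slide term, was 0.17 with slide as a block and passed the test. Other signs turned without passing it, for Sftpb at D3 (-0.02 with 75th percentile scaling, -0.04 with slide as a block, -0.06 without slides 2 and 3) and at D90 (-0.02, scaling), Sftpc at D0 (-0.01 with normexp, -0.03 with the value table), at D3 (-0.05, scaling) and at D90 (-0.26, scaling), Sftpd at D90 (-0.01, scaling), and Slc34a2 at D180 (-0.01, slide as a block) and D28 (-0.05, without slides 2 and 3). The cause was not tested.

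Leaving out 1 rat at a time gave 1 to 2 members past both limits at D0, 0 to 3 past the adjusted p at D28, 0 to 1, 1 to 2 and 1 to 3 effects differing from D0 at D28, D90 and D180, and 0 to 1 members between controls of D3 and D0. Effects ranged from -0.19 to 0.03 (Sftpb, D0), -0.03 to 0.12 (Sftpc, D0), -0.07 to 0.22 (Abca3, D0), -0.09 to 0.16 (Abca3, D3), and for Slc34a2 from -0.07 to 0.06 at D28, -0.01 to 0.08 at D90 and -0.03 to 0.07 at D180.

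Replicate numbers did not pair the rats (8 of 25 pairs correlated over 0.1). With the replicate block 2 members passed the adjusted p at D28, as did 890 of all genes. With it 1 effect differed from D0 at D90, and Napsa lost its call at D3. Sftpc sits at the top of the signal scale, which limits what a rise could show.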
